A study of Mus musculus with 6 samples.

Results

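The Wnt genes described here are the 50 genes, of 30281 gene symbols in the deposited table, whose symbols are those of Wnt ligands, Frizzled receptors, R-spondins, Sfrp and Dkk family antagonists, together with Frzb, Wif1, Lrp5, Lrp6, Axin2, Lef1, Tcf7, Porcn and Ctnnb1. The rule takes them by name and not by any measured value, though it was set with earlier results of these data known. They comprise 19 Wnt ligands, the acyltransferase Porcn, 4 R-spondins, 10 secreted antagonists, 10 Frizzled receptors, 2 co-receptors and 4 genes that act with or answer to beta-catenin. RNA-Seq was performed on 6 mouse libraries, 1 for each condition. Both lines of mouse embryo fibroblasts (MEFs) were untreated, and carry the genotypes Tsc2-/- p53-/- and Tsc2+/+ p53-/-. The other 4 libraries came from MKOC and TJ cells, kidney epithelial lines labelled Tsc2-null, either untreated or given 100 nM rapamycin, an inhibitor of mTORC1, for 18 hr without serum. The same time of 18 hr is listed for every library, those of the MEFs and of the untreated kidney cells included. TJ cells derive from a secondary tumor in C57BL6 mice. No library of a kidney line with intact Tsc2 was analysed here, each MEF genotype is a single line, and the ages of the source animals are not given in the sources used here.

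Wnt proteins are secreted lipid-modified ligands. Porcn attaches the lipid, and the ligand then binds a Frizzled receptor together with the co-receptor Lrp5 or Lrp6 to stabilize beta-catenin (Ctnnb1), which enters the nucleus and works with Tcf and Lef factors. R-spondins keep Frizzled receptors on the cell surface, Sfrp proteins, Frzb and Wif1 bind the ligands, and Dkk proteins block the co-receptors. Some ligands, Wnt5a and Wnt11 among them, act mostly through routes that do not need beta-catenin. In the kidney, Wnt9b and Wnt4 are known for their roles in forming nephrons, and Wnt7b for its role in the growth of the medulla.

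Levels are given in TPM, a unit that corrects for transcript length and for depth, summed over the transcripts of a gene. The libraries held 24010446 to 37505004 estimated counts. Tsc2 RNA was present in every library, with 22.6 TPM in Tsc2+/+ MEFs, 10.5 TPM in the library labelled Tsc2-/-, and 19.1 to 49.1 TPM in the kidney libraries, so directions drawn from genotype rest on the labels. Trp53 RNA was also present in both MEF libraries, at 26.3 and 28.5 TPM, and in the kidney libraries, at 121 to 149 TPM. Of 10 kidney epithelium markers, 8 reached 1 TPM in every kidney library, the exceptions being Epcam and Krt19, and their summed level there was 1535 to 2587 TPM. In Tsc2+/+ MEFs 0 of the 10 did so, and in Tsc2-/- MEFs 2 did, Krt18 at 20.6 TPM and Krt19 at 55.6 TPM. Of 10 fibroblast markers, 8 reached 1 TPM in Tsc2+/+ MEFs and 9 in Tsc2-/- MEFs. In the kidney libraries 2 to 4 did, among them Vim at 3609 to 7523 TPM and Dcn at 6.73 to 50.3 TPM. The Tsc2-/- MEF library stood apart by its mesothelial markers, of which all 7 reached 1 TPM there, at a summed 533 TPM, against 1 of 7 and 2.71 TPM in Tsc2+/+ MEFs. The Tsc2+/+ MEF library stood apart by transcripts under 300 bases, which took 20.9% of its TPM, against 4.09% to 7.998% in the other libraries, and their part in the results was not tested.

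Of the 50 genes, 31 reached 1 TPM in at least 1 library and 24 reached 5 TPM. The other 19 stayed under 1 TPM in all 6 libraries. These were the ligands Wnt1, Wnt2, Wnt3, Wnt3a, Wnt5b, Wnt6, Wnt8a, Wnt8b and Wnt9b, the receptors Fzd9 and Fzd10, the antagonists Dkk1, Dkk2, Dkk4, Frzb, Sfrp5 and Wif1, the R-spondin Rspo4, and Lef1. In Tsc2+/+ MEFs 10 of the 50 genes reached 1 TPM, in each kidney library 15 did, and in Tsc2-/- MEFs 28 did.

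The promoter windows of some genes named below are given as sequence, and the comparisons of RNA levels that follow do not use them. The windows are from RefSeq (GRCm38.p6) and run from 250 bases before to 50 bases after the annotated start. No such window was available for Wnt10a, Wnt7b, Porcn, Rspo2, Rspo3, Sfrp1 or Wnt5a, which also carry results below. Of the 50 genes, 33 had such a window, in 41 entries. Each was searched on both strands for CTTTGA, a core of the element bound by Tcf and Lef factors, and for CACGTG, the E-box bound by Myc and by factors of the Mitf and Tfe family. These motifs do not overlap each other. Capitals mark a match. The first 3 windows belong to genes that passed the test for rapamycin, Fzd4 as the only one that was lower. The last 3 belong to genes that were at least 8-fold higher in Tsc2-/- MEFs.
Fzd4 (chr7:89404116-89404415, plus strand): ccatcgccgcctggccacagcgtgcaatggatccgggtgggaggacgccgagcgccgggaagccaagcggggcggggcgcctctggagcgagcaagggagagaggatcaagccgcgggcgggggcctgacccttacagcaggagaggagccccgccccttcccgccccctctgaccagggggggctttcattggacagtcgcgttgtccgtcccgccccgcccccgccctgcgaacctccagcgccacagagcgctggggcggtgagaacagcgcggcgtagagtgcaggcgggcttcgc
Fzd7 (chr1:59481897-59482196, plus strand): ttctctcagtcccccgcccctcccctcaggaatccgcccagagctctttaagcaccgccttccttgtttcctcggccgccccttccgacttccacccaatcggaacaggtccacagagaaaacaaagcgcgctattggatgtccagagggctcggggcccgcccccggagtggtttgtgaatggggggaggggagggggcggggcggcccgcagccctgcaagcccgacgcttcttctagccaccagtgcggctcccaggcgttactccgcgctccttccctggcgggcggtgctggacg
Wnt9a (chr11:59306680-59306979, plus strand): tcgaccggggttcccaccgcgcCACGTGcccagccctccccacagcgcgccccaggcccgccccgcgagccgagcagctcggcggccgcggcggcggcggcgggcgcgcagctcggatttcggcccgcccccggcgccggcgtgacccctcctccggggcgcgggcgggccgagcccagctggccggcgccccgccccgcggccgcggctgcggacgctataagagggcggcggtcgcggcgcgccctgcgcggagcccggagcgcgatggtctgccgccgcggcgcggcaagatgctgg
Rspo1 (chr4:124986180-124986479, plus strand): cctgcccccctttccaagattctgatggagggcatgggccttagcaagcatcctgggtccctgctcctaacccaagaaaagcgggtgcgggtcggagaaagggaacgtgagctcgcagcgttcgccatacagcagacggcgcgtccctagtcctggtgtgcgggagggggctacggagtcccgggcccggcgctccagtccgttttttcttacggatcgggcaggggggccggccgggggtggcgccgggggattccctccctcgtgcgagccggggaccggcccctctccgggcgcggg
Sfrp2 (chr3:83766071-83766370, plus strand): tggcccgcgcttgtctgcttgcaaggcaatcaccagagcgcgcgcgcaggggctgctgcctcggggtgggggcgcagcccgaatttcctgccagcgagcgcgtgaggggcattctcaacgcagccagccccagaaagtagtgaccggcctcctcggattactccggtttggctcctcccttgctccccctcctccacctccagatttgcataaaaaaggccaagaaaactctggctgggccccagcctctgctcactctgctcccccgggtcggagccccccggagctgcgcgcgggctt
Wnt16 (chr6:22287977-22288276, plus strand): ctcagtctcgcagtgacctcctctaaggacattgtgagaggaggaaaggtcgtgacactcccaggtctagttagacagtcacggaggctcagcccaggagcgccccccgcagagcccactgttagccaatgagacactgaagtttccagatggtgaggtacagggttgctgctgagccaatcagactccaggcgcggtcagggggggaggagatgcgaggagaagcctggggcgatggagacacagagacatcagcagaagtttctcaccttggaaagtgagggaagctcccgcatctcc

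The Tcf and Lef core was found in 6 of the 41 member windows, or 14.6%, against 16.0% of all 32851 windows of the same length. The genes were Dkk1, Frzb, Fzd1, Lef1, Wnt11 and Wnt5b, and none of the 6 windows printed held it. The E-box was found in 5 of 41 windows, or 12.2%, against 7.15% of all windows, and among those printed it lay in Wnt9a alone, 228 bases before the start. The GC content of the printed windows ranged from 58.0% in Wnt16 to 83.3% in Wnt9a, against a median of 52.7% over all windows. A match or its lack describes these letters and does not show binding.

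The leading ligand differed between the cell types. In Tsc2+/+ MEFs, Wnt10b, a ligand known for holding back fat cell formation, made up 94.8% of all ligand TPM. In Tsc2-/- MEFs the leading ligands were Wnt16 with 30.4% and Wnt5a with 29.4%. In the 4 kidney libraries Wnt7b led with 46.7% to 50.3%, followed by Wnt16. The summed ligand TPM was 35.8 in Tsc2+/+ MEFs, 54.9 in Tsc2-/- MEFs and 168 to 299 in the kidney libraries.

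**Figure D1:**
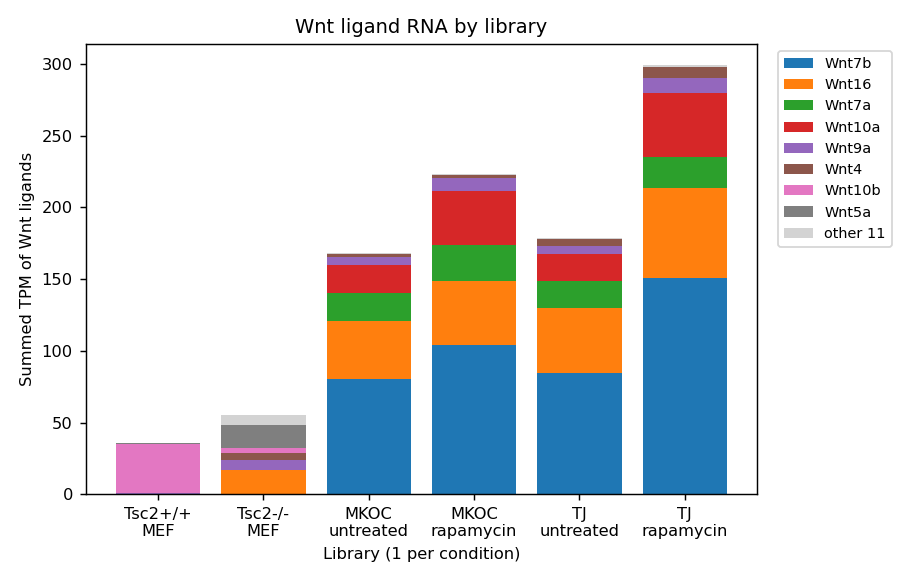
Summed TPM of the 19 Wnt ligands in each library, with the 8 ligands that reached 5 TPM in colour and the others in grey. Wnt10b fills most of the bar of Tsc2+/+ MEFs, and Wnt7b the largest part of each kidney bar, where the sums run from 168 to 299 TPM.

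All 4 kidney libraries were compared with both MEF libraries to ask which Wnt genes distinguish the cell types. This comparison has no test, since cell type, line and genotype cannot be told apart. Tsc2+/+ MEFs differ from the kidney lines in the Tsc2 label. Both MEF lines are p53-/-, a genotype not stated above for the kidney lines. A gene was counted where the groups did not overlap and the nearest libraries were at least 2-fold apart on TPM with 1 added. In such bulk samples, fewer cells of a type and less RNA per cell cannot be told apart. Of the 31 genes at 1 TPM or more, 5 were higher in the kidney lines, where 6.49% of all 13913 genes met the same rule, and 3 were lower, against 5.32% of all genes. The higher genes were 4 ligands and the enzyme that acylates them, Porcn. The lower genes were Fzd1, Fzd2 and Wnt10b. Both counts depended on which MEF library was used. Against Tsc2-/- MEFs alone 18 were lower, where 13.4% of all genes were, and 5 higher, against 7.95%. Against Tsc2+/+ MEFs alone 3 were lower, where 8.72% of all genes were, and 8 higher, against 17.1%, with Fzd4, Wnt4 and Wnt9a in addition. The 1 TPM filter was applied anew to the libraries of each comparison, and many genes passed it only through the group where they were high. Of the 18, all but Fzd2 and Fzd7 did so through Tsc2-/- MEFs. Against both MEF libraries, Fzd1 and Wnt10b passed only through MEFs, and Wnt7a, Wnt7b and Wnt10a only through kidney libraries. Without Tsc2-/- MEFs fewer than 31 genes passed the filter, since 10 reached 1 TPM in Tsc2+/+ MEFs and 15 in each kidney library.

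Wnt7b (chromosome 15, 85535437 to 85582473, GRCm38) had 80.1 TPM in untreated and 104 TPM in rapamycin-treated MKOC cells, and 84.6 and 150 TPM in untreated and treated TJ cells. It had 0.0100 TPM, or 1 estimated count, in Tsc2+/+ MEFs and 0 in Tsc2-/- MEFs, so the groups were far apart. Wnt7a (chromosome 6, 91363981 to 91411363), a ligand of the same subfamily, had 19.7 and 25.1 TPM in untreated and treated MKOC cells, and 18.6 and 21.5 TPM in TJ cells, against 0 and 0.0648 TPM in Tsc2+/+ and Tsc2-/- MEFs.

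Wnt10a (chromosome 1, 74791516 to 74804179), a ligand important for skin and teeth, had 19.2 and 38.1 TPM in untreated and treated MKOC cells, 18.5 and 44.3 TPM in TJ cells, and 0.181 and 0.142 TPM in Tsc2+/+ and Tsc2-/- MEFs. Its close relative Wnt10b (chromosome 15, 98770712 to 98778150) showed the opposite order. Wnt10b had 33.9 TPM in Tsc2+/+ MEFs, 3.13 TPM in Tsc2-/- MEFs, 0.243 and 0.227 TPM in untreated and treated MKOC cells, and 0.190 and 0.216 TPM in TJ cells. The lower of the MEF libraries thus still lay above every kidney library.

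Wnt16 (chromosome 6, 22288227 to 22298522), a ligand known from bone, was present in the kidney lines and in Tsc2-/- MEFs, but higher in the kidney lines. It had 40.5 and 44.2 TPM in untreated and treated MKOC cells and 45.5 and 63.3 TPM in TJ cells. Tsc2-/- MEFs had 16.7 TPM and Tsc2+/+ MEFs 0.0318 TPM, so the MEF library nearer to the kidney lines was the Tsc2-/- one. Unlike Wnt16, Wnt9a and Wnt4 had levels in Tsc2-/- MEFs that lay within the kidney range, so the groups overlapped. Wnt9a had 5.65 to 10.9 TPM in the kidney libraries, 7.27 TPM in Tsc2-/- MEFs and only 0.375 TPM in the Tsc2+/+ library. Wnt4 had 2.02 to 7.45 TPM in the kidney libraries, 4.69 TPM in Tsc2-/- MEFs and only 0.350 TPM in the Tsc2+/+ library.

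Among the receptors, Fzd6 was the most abundant in every library but that of Tsc2-/- MEFs, where Fzd7, Fzd1 and Fzd6 lay close together at 28.4, 27.4 and 26.6 TPM. Fzd6 (chromosome 15, 39006034 to 39038188) is a Frizzled best known for tissue polarity, and in the kidney libraries it made up 58.2% to 74.8% of Frizzled TPM. Its level was 25.7 TPM in Tsc2+/+ MEFs and 25.2 to 41.2 TPM in the kidney libraries, so MEFs and kidney lines overlapped. Fzd1 (chromosome 5, 4753839 to 4758035) was nearly confined to MEFs, with 14.5 TPM in Tsc2+/+ and 27.4 TPM in Tsc2-/- MEFs against at most 0.0161 TPM, or 1 estimated count, in a kidney library. Fzd2 (chromosome 11, 102604396 to 102608058) had 8.34 and 20.8 TPM in the MEFs and 1.70 to 3.27 TPM in the kidney libraries. Fzd3 had 0.710 and 3.22 TPM in the MEFs. Like Fzd8, it had 0 estimated counts in all 4 kidney libraries, but with 1 TPM added the nearest libraries were under 2-fold apart for both.

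The co-receptors and beta-catenin itself were present in all 6 libraries. Lrp5 had 14.5 and 19.6 TPM in Tsc2+/+ and Tsc2-/- MEFs and 21.6 to 30.6 TPM in the kidney libraries. Lrp6 had 11.1 and 24.5 TPM in the MEFs and 13.2 to 16.1 TPM in the kidney libraries. Ctnnb1 ranged from 225 TPM in Tsc2+/+ MEFs to 337 TPM in Tsc2-/- MEFs, and the kidney libraries, at 282 to 314 TPM, lay between them. Axin2, a direct target and feedback inhibitor of the beta-catenin pathway, had 0.118 to 0.377 TPM in the kidney libraries, from 6 to 14 estimated counts. Porcn (chromosome X, 8193848 to 8206525) had 5.18 and 3.54 TPM in the MEFs and 15.1 to 28.9 TPM in the kidney libraries, with no overlap.

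**Figure D2:**
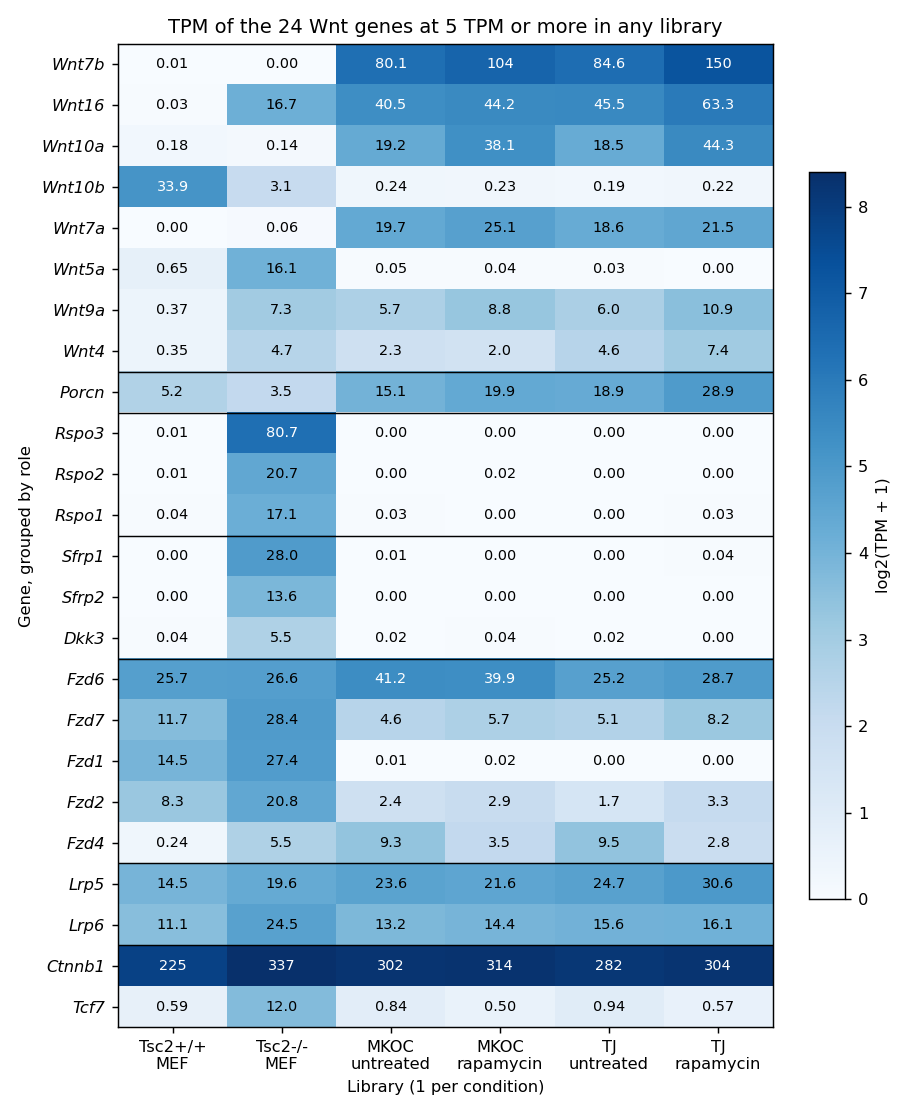
TPM of the 24 Wnt genes that reached 5 TPM, by library, grouped by role from ligands (top) to beta-catenin effectors (bottom), with shading by log2(TPM + 1). Above 1 TPM, the R-spondins and Sfrp genes shown are seen in the Tsc2-/- MEF library only, with 80.7 TPM for Rspo3, and Wnt7b, Wnt7a and Wnt10a in the kidney libraries only.

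In the MEFs, the comparison asks which Wnt genes differ between cells labelled Tsc2-/- and Tsc2+/+. R-spondins, Sfrp antagonists and several ligands were present in Tsc2-/- MEFs and near 0 in Tsc2+/+ MEFs, while Wnt10b was the only gene that was lower by 2-fold or more. With 1 library of each genotype the differences have no replicate check and no p-value. Of the 28 genes with 1 TPM or more in either library, 21 were higher by 2-fold or more in Tsc2-/- MEFs, where 25.2% of all 12771 genes were, and 1 was lower to that extent, against 5.18% of all genes. At least 8-fold higher were 8 of the 28, against 3.24% of all genes, and 1 was at least 8-fold lower, against 0.525%. These counts, and the median and scaled counts below, depend on the filter. All 28 reached 1 TPM in Tsc2-/- MEFs, but only 10 did in Tsc2+/+ MEFs, so most passed through the library where they were high. Of those at 1 TPM or more in both libraries, only Fzd2, Fzd7 and Lrp6 were higher by 2-fold or more. Each of them dropped under 2-fold with the scaling given below. Fold changes here are of TPM with 1 added, which understates those of low genes.

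Over all genes the median log2 fold change was 0.45, and over the 28 Wnt genes it was 1.60. With the libraries scaled to a median ratio of 1 over genes of at least 10 TPM, 17 of the 28 were at least 2-fold higher, where 16.5% of all genes were, and 1 was lower, against 8.44%. The genes that dropped under 2-fold were Fzd2, Fzd7, Lrp6 and Wnt2b. All 7 mesothelial markers were higher by 2-fold or more in the Tsc2-/- library too, with Upk3b at 0 and 154 TPM and Wt1 at 0.0668 and 81.6 TPM, and Upk1b and Gpm6a also at 0 in Tsc2+/+ MEFs. Their part in the Wnt differences was not tested.

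The largest difference was that of an R-spondin. Rspo3 (chromosome 10, 29452416 to 29535867) had 1 estimated count (0.0144 TPM) in the Tsc2+/+ library against 2766 (80.7 TPM) in the Tsc2-/- library, a ratio of 5611 with a 95% counting interval of 1006 to 221684. Rspo2 (chromosome 15, 43020794 to 43170826) had 0.0101 and 20.7 TPM, from 1 and 1007 estimated counts. Rspo1 (chromosome 4, 124986430 to 125009099) had 0.0386 and 17.1 TPM, from 2 and 398 estimated counts. Every one of these 3 genes had at most 0.0334 TPM in each kidney library, so R-spondins reached 1 TPM in Tsc2-/- MEFs alone among the 6 libraries. These intervals, and those that follow, cover counting error only.

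The secreted antagonists had a like pattern. Sfrp1 (chromosome 8, 23411502 to 23449632), which binds Wnt ligands outside the cell, had 1817 estimated counts with the Tsc2-/- genotype against 0, at least a 1233-fold difference against a floor of 3 counts. Sfrp2 (chromosome 3, 83766321 to 83774316) had 363 estimated counts (13.6 TPM) against 0, at least 259-fold higher by the same floor. Both were at or near 0 in the kidney lines, the highest value being 0.0394 TPM for Sfrp1 in treated TJ cells. Dkk3, a divergent member of the Dkk family, had 4 and 269 estimated counts in Tsc2+/+ and Tsc2-/- MEFs, with 5.47 TPM in the latter, and Sfrp4 had 0.0608 and 1.72 TPM.

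Ligands differed in both directions. Wnt5a (chromosome 14, 28504750 to 28527448), the leading ligand of beta-catenin-independent signaling, had 16.1 TPM in Tsc2-/- and 0.648 TPM in Tsc2+/+ MEFs, a log2 fold change of 3.38, and at most 0.0452 TPM in a kidney library. Wnt16 had 2 and 381 estimated counts and a log2 fold change of 4.10. Wnt9a, Wnt11, Wnt4 and Wnt2b had smaller log2 fold changes of 2.59, 2.31, 2.07 and 1.07. Wnt10b had 2169 estimated counts in the Tsc2+/+ library against 99. Its log2 fold change was -3.08, and its TPM ratio of Tsc2+/+ to Tsc2-/- was 10.8, with a counting interval of 8.86 to 13.4.

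The receptor differences depended on the scaling. Fzd4 (chromosome 7, 89404355 to 89413134), the receptor of Norrin as well as of Wnts, had 0.236 and 5.47 TPM in Tsc2+/+ and Tsc2-/- MEFs, a log2 fold change of 2.39. Fzd7, Fzd2, Fzd8 and Fzd3 had log2 fold changes of 1.21, 1.22, 1.43 and 1.30, and Fzd1, Fzd5 and Fzd6 stayed under 2-fold at 0.87, 0.40 and 0.05. After scaling, Fzd7 and Fzd2 had 0.84 and 0.86, and Fzd6 changed its sign, to -0.33. Tcf7 (chromosome 11, 52252371 to 52283014), a transcription factor that binds beta-catenin, had 0.586 and 12.0 TPM and a log2 fold change of 3.03. Axin2 had 52 and 218 estimated counts and a log2 fold change of 1.76. Ctnnb1, Lrp5 and Porcn, with log2 fold changes of 0.58, 0.41 and -0.44, were within 2-fold of each other between the MEF lines.

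**Figure D3:**
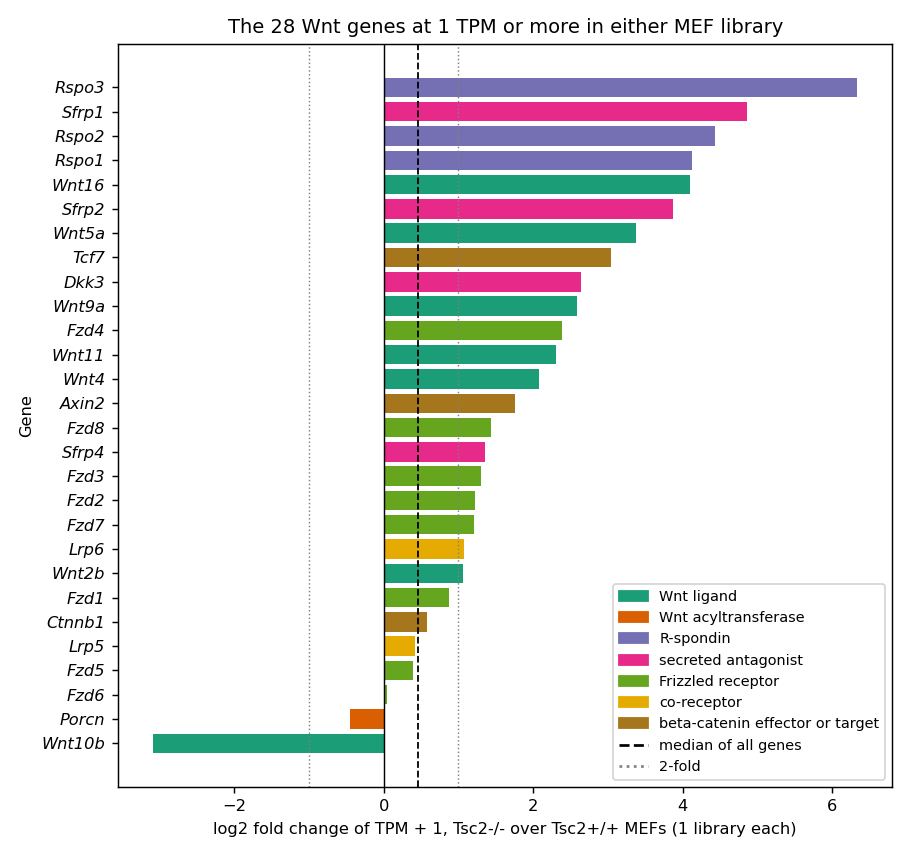
Log2 fold change of TPM + 1 in Tsc2-/- over Tsc2+/+ MEFs for the 28 Wnt genes at 1 TPM or more, 1 library each, with bars coloured by role. The 3 R-spondins, Sfrp1 and Wnt16 have bars beyond 4, and Wnt10b is the only bar under -1. The dashed line marks the median of all genes at 0.45.

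In the kidney lines, rapamycin was compared with no treatment to find which Wnt genes answer to inhibition of mTORC1. For 3 ligands, the enzyme Porcn and 1 receptor, levels were higher with rapamycin, and the receptor Fzd4 was lower, at 0.332 of its untreated level. Estimated counts were tested with edgeR in a model of line and treatment, and p-values were adjusted after Benjamini and Hochberg over all 12952 tested genes. The 2 lines are the only replicates, so p-values measure the spread between these libraries. Of the 18 Wnt genes tested, 5 were higher at an adjusted p under 0.05, where 17.5% of all tested genes were, and 1 was lower, where 17.4% of all tested genes were. The median log2 fold change of the 18 was 0.18, against 0.02 over all tested genes. The other 32 genes were too low to be tested.

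Wnt10a rose most. Its 19.2 TPM in untreated MKOC cells stood against 38.1 TPM with rapamycin, and its 18.5 TPM in untreated TJ cells against 44.3 TPM, so both treated libraries lay above both untreated ones. On the log2 scale the increase was 1.12 (standard error 0.12, edgeR adjusted p = 0.00012). Wnt9a, a ligand of joint formation, had 5.65 and 8.79 TPM in untreated and treated MKOC cells and 5.97 and 10.9 TPM in TJ cells, a log2 fold change of 0.74 (standard error 0.14, edgeR adjusted p = 0.0029). Wnt7b, the most abundant ligand, rose by a log2 fold change of 0.60 (standard error 0.12, edgeR adjusted p = 0.0039) from the levels given above. Its increase was 1.30-fold in MKOC cells (counting interval 1.25 to 1.35) and 1.78-fold in TJ cells (1.72 to 1.84).

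Porcn, on which the secretion of these ligands depends, had 15.1 and 19.9 TPM in untreated and treated MKOC cells, and 18.9 and 28.9 TPM in TJ cells. Its log2 fold change was 0.51 (standard error 0.13, edgeR adjusted p = 0.014). Porcn was also higher in TJ than in MKOC cells by a log2 fold change of 0.50 (edgeR adjusted p = 0.044), a call that was lost with DESeq2 (adjusted p = 0.21), with the size factors of DESeq2 in edgeR (adjusted p = 0.054) and with limma (adjusted p = 0.12). Its TPM ratio of TJ to MKOC was 1.25 in untreated and 1.45 in treated cells. In fits with no treatment term, its log2 fold change between lines was 0.16 without the treated TJ library and 0.82 without the untreated one. Those fits also take in its change with rapamycin. Fzd7 (chromosome 1, 59482424 to 59486955), a receptor of epithelial stem cells, had 4.60 and 5.70 TPM in untreated and treated MKOC cells and 5.13 and 8.21 TPM in TJ cells, with a log2 fold change of 0.49 (standard error 0.15, edgeR adjusted p = 0.025). With DESeq2 in place of edgeR neither gene passed, at adjusted p-values of 0.070 for Porcn and 0.12 for Fzd7.

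Fzd4 fell by 1.59 on the log2 scale (standard error 0.16, edgeR adjusted p = 8.3e-05). It had 9.26 TPM in untreated and 3.53 TPM in treated MKOC cells, from 653 and 193 estimated counts, and 9.48 and 2.77 TPM in TJ cells, from 600 and 176. The treated libraries lay under both untreated ones, and the ratio was 0.381 (counting interval 0.323 to 0.448) in MKOC and 0.292 (0.245 to 0.346) in TJ cells. Fzd4 went from the second to the third Frizzled in MKOC cells and from the second to the fourth in TJ cells. Summed over the 10 receptors, Frizzled TPM was 59.1 and 53.4 in untreated and treated MKOC cells, and 43.4 and 44.6 in TJ cells.

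The ligands together had 168 TPM in untreated and 223 TPM in treated MKOC cells, and 179 and 299 TPM in TJ cells, sums that include the genes counted above. Wnt16 and Wnt7a did not pass the test, with log2 fold changes of 0.30 and 0.28 and an edgeR adjusted p of 0.079 each, and neither did Fzd2, at 0.61 (edgeR adjusted p = 0.063). The other 9 genes tested without a call were Wnt4, Wnt5b, Fzd5, Fzd6, Lrp5, Lrp6, Ctnnb1, Tcf7 and Axin2, with log2 fold changes from -0.76 (Tcf7, standard error 0.36) to 0.28 (Wnt4, standard error 0.21). Axin2, at 6 to 14 estimated counts in each kidney library, had a standard error of 0.51, so a change of this target could not be judged at this depth. Markers moved with rapamycin as well. Of 8 tested kidney epithelium markers 4 were higher, among them Krt8 with a log2 fold change of 0.79. Of 9 tested fibroblast markers 3 were higher, among them Col3a1 at only 0.139 to 1.07 TPM in the kidney libraries. Over all tested genes 17.5% were higher. The part of these markers in the Wnt differences was not tested.

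**Figure D4:**
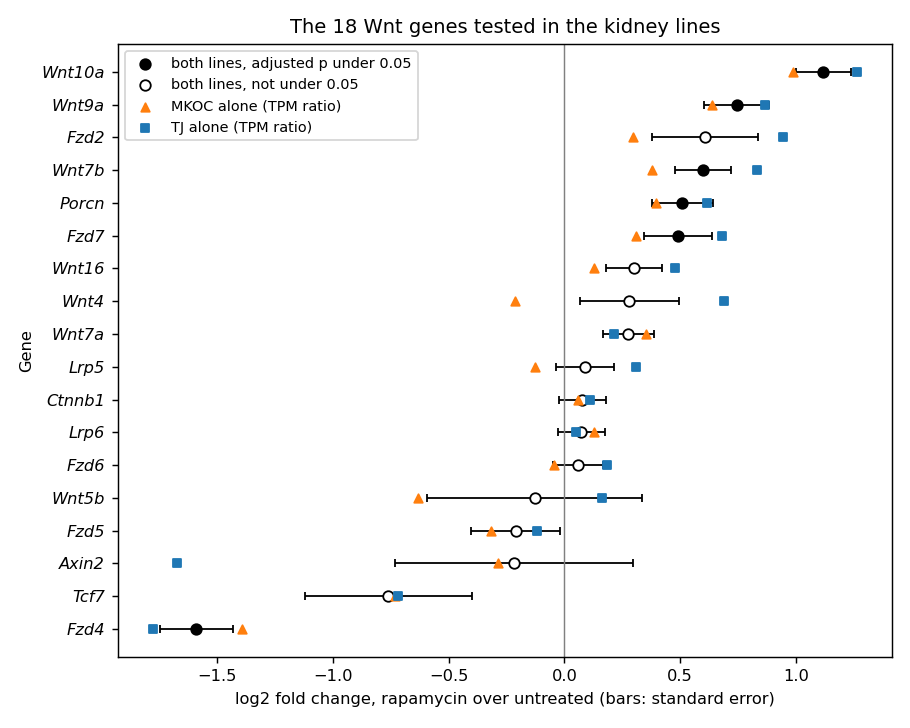
Log2 fold change with rapamycin of the 18 Wnt genes tested in the kidney lines, with the edgeR estimate over both lines (circles, filled where the adjusted p was under 0.05, bars showing the standard error) and the TPM ratio in MKOC (triangles) and TJ cells (squares). Wnt10a at 1.12 and Fzd4 at -1.59 stand at the ends, and both lines lie on the same side of 0 for each filled circle.

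Leaving the cell line out of the model left 3 of the 6 genes under an adjusted p of 0.05, namely Fzd4, Wnt10a and Wnt9a. Over all genes this fit called 1275, against 4526 with the line. With the untreated MKOC or the untreated TJ library left out as well, 0 of the 18 genes passed edgeR's test, and 3 had an unadjusted p under 0.05 in either case, but these fits called only 96 and 0 genes in all. Without the treated MKOC library 3 genes passed, of 613 in all, and without the treated TJ library 2, of 531. Within MKOC cells alone, the TPM ratios of Porcn, Fzd7 and Wnt7b with rapamycin were 1.32, 1.24 and 1.30. Within TJ cells alone they were 1.53, 1.60 and 1.78. In the fits without the treated TJ library, the log2 fold changes of these genes were 0.18, 0.23 and 0.34. Without the treated MKOC library that of Porcn was 0.80. With the line out of the model, these values also take in the difference between the lines. All 6 genes kept their direction in these fits.

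Between TJ and MKOC cells, 3 of the tested Wnt genes differed. Of the same 18 genes, 2 were higher in TJ cells, where 5.47% of all tested genes were, and 1 was lower, against 3.32% of all tested genes. Wnt4 (chromosome 4, 137277489 to 137299726) had 2.34 and 2.02 TPM in untreated and treated MKOC cells and 4.62 and 7.45 TPM in TJ cells, a log2 fold change of 1.41 (standard error 0.22, edgeR adjusted p = 0.0036), and both TJ libraries lay above both MKOC libraries. Fzd6 had 41.2 and 39.9 TPM in MKOC cells and 25.2 and 28.7 TPM in TJ cells, and was lower in TJ cells by a log2 fold change of -0.61 (standard error 0.11, edgeR adjusted p = 0.0080). The other gene that was higher was Porcn, described above. Each line is 1 line, so a difference between lines and one between tumor-derived and other cells cannot be told apart. Without the treatment in the model, 0 of the 18 genes passed edgeR's test for the line, and 2 had an unadjusted p under 0.05, but 0 of all 12952 genes passed in that fit. DESeq2 and limma, with the treatment, each called 2.

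Several ligands were carried by a single transcript. Wnt10a-201, Wnt7a-201 and Wnt7b-201 took 96.7% to 100% of the estimated counts of their gene in each kidney library. Porcn was the exception among the genes called for rapamycin. The nonsense-mediated decay transcript Porcn-207 took 41.8% of the Porcn counts in Tsc2+/+ MEFs, 37.0% in Tsc2-/- MEFs, 17.0% and 19.7% in untreated and treated MKOC cells, and 10.4% and 1.37% in TJ cells. The protein-coding Porcn-203 took 48.3% and 38.1% in MKOC cells and 46.5% and 69.5% in TJ cells, so its share moved in opposite directions with rapamycin in the lines. For Wnt5a, Wnt5a-201 took 69.3% of the counts in Tsc2+/+ and 49.8% in Tsc2-/- MEFs, and the shorter Wnt5a-202 took 24.6% and 47.8%. Similar transcripts share reads that Kallisto has to apportion, and these shares were not tested.

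The rest of the pathway was read from 7 lists of other Wnt genes. They hold 68 genes, of which 44 were tested for rapamycin. Of these, 10 were higher and 4 lower, against the same 17.5% and 17.4% of all tested genes. Past a log2 fold change of 1 in either direction lay 4 of these genes. Apc2, a relative of the destruction complex scaffold Apc, had a log2 fold change of 1.58 (edgeR adjusted p = 0.00037) and rose from 0.553 to 2.30 TPM in MKOC cells and from 0.892 to 2.13 TPM in TJ cells. Trabd2b, a protease that inactivates Wnt ligands, had 1.52 (edgeR adjusted p = 0.0064) at 1.04 TPM or less in every kidney library. Celsr1, a planar polarity cadherin, had 1.63 and 2.93 TPM in untreated and treated MKOC cells and 0.921 and 2.12 TPM in TJ cells (edgeR adjusted p = 0.00099). Lrp4, a receptor that can hold back Wnt signaling, was lower, with 1.29 and 0.467 TPM in MKOC cells and 0.646 and 0.303 TPM in TJ cells (edgeR adjusted p = 0.032). DESeq2 kept Apc2 and Celsr1 under 0.05 but not Trabd2b (adjusted p = 0.051) or Lrp4 (adjusted p = 0.18), which were too low for the limma fit. Without the line in the model only Apc2 of these 4 passed, and Trabd2b had a log2 fold change of 0.46 without the treated TJ library. Of the 4 R-spondin receptors and receptor-removing ligases tested, which include Lgr4 at 21.8 to 23.1 TPM, 0 passed with edgeR, DESeq2 or limma, and 0 had an unadjusted p under 0.05 with edgeR.

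In the MEFs, the lists had medians of 0.44 to 1.35 on the log2 scale, against 0.45 over all genes. The surface proteins that shape the ligand gradient differed most. Gpc3, a glypican, had 0.344 TPM in Tsc2+/+ and 85.8 TPM in Tsc2-/- MEFs, a log2 fold change of 6.01, and Sulf1, a sulfatase of heparan sulfate, had a log2 fold change of 5.52 at 44.9 TPM. Among the targets, 9 reached 1 TPM in either MEF library. Of these, 4 were higher by 2-fold or more and 2 lower, where 25.2% and 5.18% of all genes were. These counts and the list medians depend on the filter too. Lgr5, among the higher targets, passed only through Tsc2-/- MEFs, as did Gpc3 and Sulf1. Notum, among the lower ones, passed only through Tsc2+/+ MEFs. Apcdd1, a membrane antagonist, had 1.94 and 15.5 TPM and Ccnd1, a cyclin, 5.09 and 28.3 TPM. The lower ones were Notum, with 3.70 and 0.464 TPM, and Cd44, with 92.2 and 29.1 TPM. In the planar polarity list, Prickle2 and Prickle1 led with log2 fold changes of 2.47 and 2.23. The R-spondin receptor Lgr5 had 0.0612 and 1.20 TPM in the MEFs, where the more abundant Lgr4 had 15.6 and 15.5 TPM.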

How the data were processed

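RNA-Seq was performed on poly(A)-selected stranded libraries from 6 mouse samples, 1 per condition. The authors trimmed the reads with Trimmomatic and quantified transcripts with Kallisto, and deposited estimated counts (expected counts) and TPM for 88198 transcripts. The paper names a human reference, but the identifiers belong to mouse transcripts. Of the second deposited table, which holds the authors' fold changes (a ratio), only the symbols were used. Per the labels, Kallisto is the quantifier, and its version is not given in the sources used here. The 118 transcripts of the 50 genes were matched to GENCODE M21 (GRCm38), all with the same symbol.

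Estimated counts and TPM were summed per symbol. Counts of transcripts with no symbol were 0.372% to 0.468% of a library and were left out. For the kidney lines, sums were rounded, filtered with filterByExpr and scaled by TMM. A model of line and treatment was fitted over 12952 genes by the quasi-likelihood method of edgeR, with Benjamini-Hochberg adjustment at 0.05. The pairing by line comes from the labels, and libraries of the same line deviated together (correlation 0.56 over these genes). MEFs, and kidney lines against MEFs, were described by TPM with 1 added, with no test, since there is 1 library per genotype. Exact counting intervals are at 95%, and a floor of 3 counts was used for genes at 0. With 24010446 to 37505004 estimated counts per library, intervals cover counting error only.

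The genes, lists and tests were chosen with earlier results of these data known. Values in each library are given for genes of at least 5 TPM in any library, those called for rapamycin and those at least 8-fold apart in the MEFs. Other pathway genes are named past a log2 fold change of 1 with rapamycin or as the 2 largest MEF differences of a list. Lgr4, Notum, Cd44, the single marker genes and Tsc2 and Trp53 were named after their values were seen, as were the transcripts. Promoter windows are those of RefSeq (GRCm38.p6). Alternatives were DESeq2, limma on log2 TPM, other normalizations, filters, pseudocounts, CPM and leaving out each library. The steps were tested on simulated data. Statistics ran in R 4.3.3 (edgeR 4.0.16, DESeq2 1.42.0 and limma 3.58.1), and tables and figures were made in Python 3.11.15 with pandas 2.3.3, numpy 2.4.6, scipy 1.17.1 and matplotlib 3.10.9.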

Additional observations from a re-analysis of the deposited data

Results flagged for a closer look

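Lrp5, a co-receptor of Wnt ligands, moved in opposite directions with rapamycin in the kidney lines. Its TPM was 23.6 in untreated and 21.6 in treated MKOC cells, a ratio of 0.915 (95% counting interval 0.860 to 0.975), and 24.7 and 30.6 in TJ cells, a ratio of 1.24 (1.17 to 1.31). It drew attention because both intervals leave out 1 on opposite sides, with 1 library for each line and treatment. The difference between the lines was not tested, and the intervals cover counting error only. Over both lines Lrp5 did not pass edgeR's test (log2 fold change 0.09, standard error 0.13, adjusted p = 0.63).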

How the results depend on the processing

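For rapamycin, 4 to 7 of the Wnt genes passed with DESeq2, limma, other normalizations or no filter on low counts, against 6. Without the cell line as a block (no pairing of the libraries), 3 passed, and leaving out 1 library each, also without the block, gave 0 to 3. For TJ against MKOC the count was 2 or 3 against 3, but 0 with edgeR without the block on treatment, and 0 with each library left out, where 1 to 3 genes had an unadjusted p under 0.05. In the MEFs, 5 TPM added in place of 1 left 12 genes at least 2-fold apart, against 22, and an 8-fold threshold left 9. Between kidney lines and MEFs, the count of 8 became 5 with 5 TPM added and 19 with no minimum gap, and 8 to 23 with 1 library left out, the highest without Tsc2+/+ MEFs, where 18 genes lay below the MEF library that remained. Most of those 18 reached 1 TPM only in Tsc2-/- MEFs, through which they passed the filter. None of the Wnt genes called for rapamycin or between lines, and none of those at least 2-fold apart in the MEFs, reversed its direction under these alternatives. Fzd6, under 2-fold in the MEFs, went from 0.05 to -0.33 on the log2 scale after scaling and with CPM. Depth limits Axin2 and Tcf7 in the kidney lines, at 6 to 39 estimated counts. The cause of these shifts was not tested, apart from the loss of samples and of residual degrees of freedom when libraries are left out.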
